A study of Mus musculus with 6 samples.

Results

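C1q and resident macrophage genes were followed in tumours of UV2237M, a mouse fibrosarcoma line (a tumour of connective tissue cells). The set holds 9 of the 23183 gene symbols in the count tables. They are *C1qa*, *C1qb* and *C1qc*, the 5 genes *Csf1r*, *Fcrls*, *Gpr34*, *Mrc1* and *Cd163*, taken as markers of macrophages that live in tissues, and *Cd68*, a marker of macrophages in general. The 9 were picked by name with their treated and untreated values in these tumours already known, so those values are given here as a description and support nothing by themselves. The 3 treated tumours received gold nanoclusters, particles of a few gold atoms that absorb light, on day 1 and day 7, with near-infrared (NIR) irradiation. The 3 untreated tumours had no treatment. The genotype in the labels is WT for both groups, and the sources used here do not give the strain and age of the host, the time of harvest or whether each tumour came from its own mouse. The p-values therefore measure the spread between these samples, which may be technical in part.

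Macrophages take up dying cells, pathogens and debris, and in tumours they come both from cells already in the tissue and from blood monocytes. C1q is the part of the first complement component that recognises its targets. It is built from A, B and C chains, the products of *C1qa*, *C1qb* and *C1qc*, and tissue macrophages are among its main producers. CSF1R, the receptor for the growth factors CSF1 and IL-34, keeps most macrophages alive, and CD68 is a glycoprotein of the lysosomes of phagocytes.

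The deposited counts summed to between 4680295 and 8019294 per library. Untreated 2 stood apart, with a mean root mean square distance of 1.22 on the log2 CPM scale (CPM are counts scaled to library size) from the other 5 libraries, against 0.611 to 0.729 for each of the others. Fibroblast markers summed to between 19329 and 24906 CPM in treated tumours and 21337 to 27020 CPM in untreated tumours. Most of each sum was *Col3a1*, with 18757 of the 21337 CPM in untreated 2. Other markers were less even, such as *Col1a1* at 59.4 CPM in untreated 2, against 2209 and 2494 CPM in untreated 1 and 3. Both genes were named after their values were seen. All 20 genes of a list of general macrophage and myeloid genes that were in the tables passed the filter on low counts, as did all 9 members, while 1 of 12 T and NK cell markers and 0 of 7 B and plasma cell markers did.

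The C1q genes were lower in each treated tumour than in any untreated one. Summed over *C1qa*, *C1qb* and *C1qc*, the level was 127.3, 239.5 and 171.0 CPM in treated 1, 2 and 3, against 361.4, 675.3 and 331.7 CPM in untreated 1, 2 and 3. The sums averaged 179.3 ± 56.6 CPM in treated tumours and 456.1 ± 190.4 CPM in untreated tumours (SD, n = 3 each), a ratio of 0.393, or 0.517 when untreated 2 is left out. The groups did not overlap, and untreated 2 was the highest library. In these bulk samples, fewer macrophages and less of the RNA per macrophage cannot be told apart.

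*C1qa*, for the A chain, had 56.7, 106.5 and 72.7 CPM in treated 1, 2 and 3, against 156.2, 294.3 and 140.1 CPM in untreated 1, 2 and 3. *C1qb*, for the B chain, had 40.05, 70.5 and 51.5 CPM in treated tumours, against 109.2, 196.6 and 92.9 CPM in untreated tumours. *C1qc*, for the C chain, had 30.6, 62.6 and 46.7 CPM in treated tumours, against 95.9, 184.3 and 98.8 CPM in untreated tumours. In each of the 3 genes treated 2 was the highest treated tumour and still lay below the lowest untreated one. The log2 fold changes of treated over untreated tumours, with standard errors from edgeR, were -1.32 ± 0.37 for *C1qa*, -1.30 ± 0.36 for *C1qb* and -1.43 ± 0.37 for *C1qc*. Without untreated 2 they were -0.915 ± 0.23 for *C1qa*, -0.90 ± 0.22 for *C1qb* and -1.06 ± 0.25 for *C1qc*.

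The chains kept nearly fixed proportions while their sum ranged over the 6 libraries from 127.3 to 675.3 CPM. The count of *C1qa* was 1.415, 1.51 and 1.413 times that of *C1qb* in treated 1, 2 and 3, and 1.43, 1.497 and 1.51 times in untreated 1, 2 and 3. On the log2 scale this ratio had an SD of 0.05 over the 6 libraries, against 0.13 for *C1qa* over *C1qc* and 0.15 for *C1qb* over *C1qc*. These ratios are taken within a library and so do not depend on how libraries are scaled to each other. Treated and untreated ranges overlapped in all 3 ratios.

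The C1q genes sit side by side on chromosome 4, within 18675 bases from 136880129 to 136898803 of mm10, all on the minus strand in GENCODE M21. *C1qb* spans 136880129 to 136886187, *C1qc* 136889804 to 136893065 and *C1qa* 136895917 to 136898803, and all are protein-coding. The promoters of *C1qb* and *C1qc* are shown because the levels of these neighbours ran in step over the 6 libraries. That of *Cd68*, on the minus strand of chromosome 11 from 69664213 to 69666153, is shown as the gene set against them. The RefSeq table of GRCm38.p6 held windows for 6 of the 9 members, each from 250 bases before to 50 bases after the start of the gene in that table. For *C1qc* that start lies within the GENCODE span given above, so its window covers part of that span. The windows lie at chr4:136886151-136886450 for *C1qb*, chr4:136892865-136893164 for *C1qc* and chr11:69666121-69666420 for *Cd68*, and are written along the minus strand, 5′ to 3′. Capitals mark GAGGAA, the core bound by the macrophage factor PU.1, its reverse complement TTCCTC, and TGCTGA, part of the element bound by MAF factors, which was also searched as TCAGCA.
C1qb: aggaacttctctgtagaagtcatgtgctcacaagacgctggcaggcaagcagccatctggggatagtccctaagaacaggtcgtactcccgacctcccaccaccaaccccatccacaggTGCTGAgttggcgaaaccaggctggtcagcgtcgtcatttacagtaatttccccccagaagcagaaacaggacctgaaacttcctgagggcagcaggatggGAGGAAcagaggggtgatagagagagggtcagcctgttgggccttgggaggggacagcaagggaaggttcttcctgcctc
C1qc: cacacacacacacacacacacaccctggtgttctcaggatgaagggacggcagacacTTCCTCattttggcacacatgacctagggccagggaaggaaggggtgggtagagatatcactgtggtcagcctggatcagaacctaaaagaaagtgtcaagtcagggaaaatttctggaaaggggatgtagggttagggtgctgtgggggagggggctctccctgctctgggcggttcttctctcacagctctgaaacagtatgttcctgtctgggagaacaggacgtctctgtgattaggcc
Cd68: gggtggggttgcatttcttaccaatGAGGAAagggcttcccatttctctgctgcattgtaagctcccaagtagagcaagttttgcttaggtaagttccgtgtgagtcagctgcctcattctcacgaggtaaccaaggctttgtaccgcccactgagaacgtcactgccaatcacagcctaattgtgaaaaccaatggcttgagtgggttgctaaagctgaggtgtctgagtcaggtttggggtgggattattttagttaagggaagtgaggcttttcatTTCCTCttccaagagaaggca
The *C1qb* window held GAGGAA from position -30 and TGCTGA from position -131, counted from the RefSeq start. The *C1qc* window held the PU.1 core on the other strand from position -193, and the *Cd68* window held it from position -225 and, on the other strand, from position 30. No marked motifs overlapped each other. Of all 32851 windows in the table, 28.3% held the PU.1 core and 19.5% the MAF element on either strand, so these matches are common and describe the letters only.

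*Fcrls* and *Gpr34*, both known from mouse microglia, the macrophages of the brain, had the largest fold changes of the 9. In mm10, *Fcrls* lies on chromosome 3 from 87250758 to 87263738 and *Gpr34* on chromosome X from 13632089 to 13640858. *Fcrls* codes for a protein related to Fc receptors, and it had 5.90, 15.5 and 5.97 CPM in treated 1, 2 and 3, against 47.3, 88.6 and 38.8 CPM in untreated 1, 2 and 3. Its counts were 33, 114 and 48 in treated and 313, 397 and 316 in untreated tumours. *Gpr34*, a receptor for lysophosphatidylserine, had 3.93, 6.12 and 2.36 CPM in treated tumours, against 18.5, 60.9 and 14.0 CPM in untreated tumours. Its counts were 22, 45 and 19 in treated and 122, 273 and 114 in untreated tumours, so counting error is wider here. The groups did not overlap in either gene, and untreated 2 was highest in both.

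The log2 fold change was -2.66 ± 0.50 for *Fcrls* and -2.90 ± 0.66 for *Gpr34*, or -2.23 ± 0.38 and -1.97 ± 0.38 without untreated 2. Relative to C1q, *Fcrls* was lower again in treated tumours. The log2 ratio of its count to the summed C1q count averaged -4.41 ± 0.45 in treated tumours and -2.99 ± 0.10 in untreated tumours (SD, n = 3 each), without overlap. The log2 ratio of *Gpr34* to *Fcrls* was -1.09 ± 0.44 in treated and -1.12 ± 0.51 in untreated tumours, a difference of 0.04, or 0.33 without untreated 2.

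**Figure D1:**
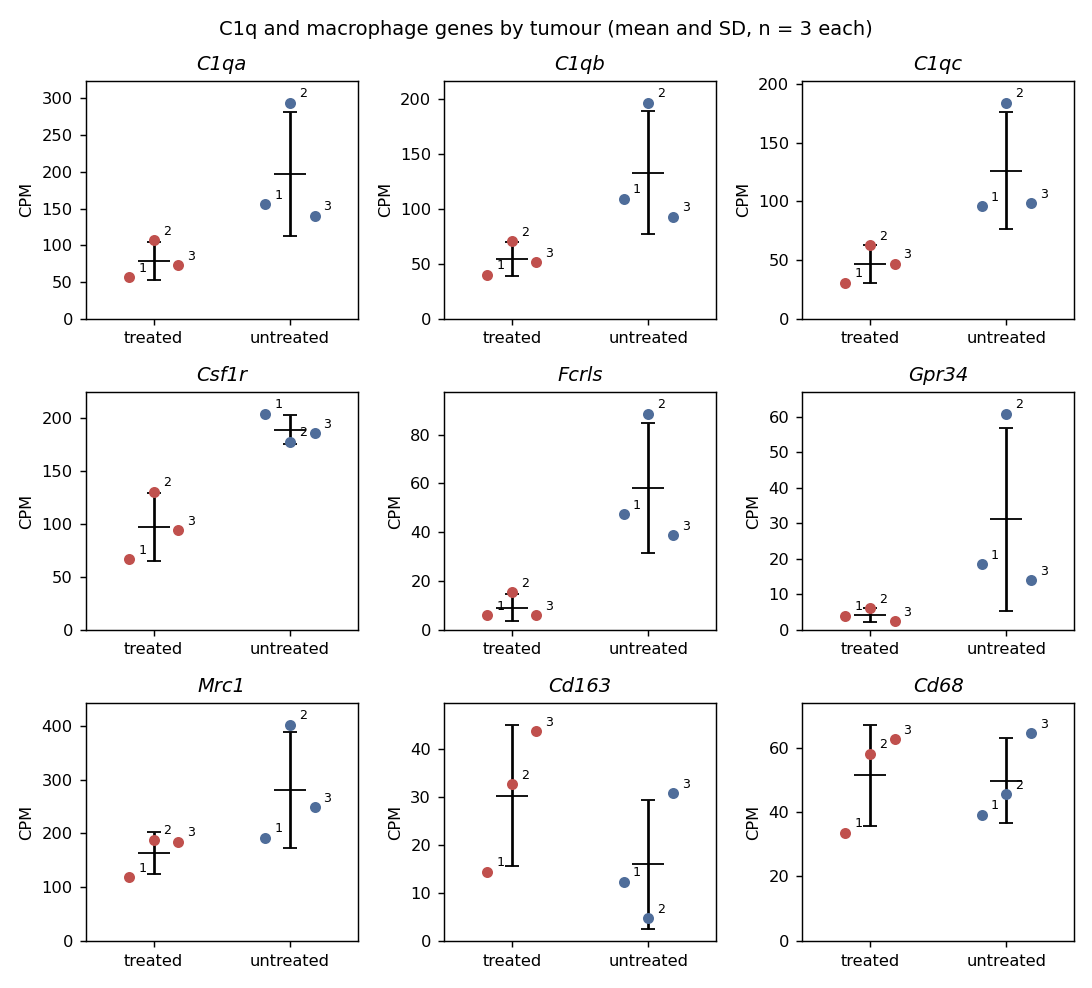
Each panel plots the CPM of a gene in the 3 treated (red) and 3 untreated (blue) tumours, numbered by replicate, with the mean and SD as black lines and an axis from 0. The treated points of the C1q genes, Csf1r, Fcrls, Gpr34 and Mrc1 lie below the untreated ones, while those of Cd163 and Cd68 overlap them.

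*Csf1r* lies on chromosome 18 from 61100598 to 61132149. It had 66.5, 130.4 and 94.1 CPM in treated 1, 2 and 3, against 204.2, 177.9 and 185.7 CPM in untreated 1, 2 and 3. Untreated tumours differed little from each other, with an SD of 13.5 CPM around 189.3 CPM, and the groups did not overlap. The log2 fold change was -0.96 ± 0.28, or -1.01 ± 0.24 without untreated 2. Where *Csf1r* departs from C1q is in untreated 2, with a log2 ratio to the C1q sum of -1.92, against -0.94 to -0.82 in the other 5 libraries. Exons of *Csf1r* share 873 bases with those of *Hmgxb3* on the other strand, and as the strand setting of the counting is not stated, reads of the pair there cannot be told apart. *Hmgxb3* itself averaged 64.8 ± 5.68 CPM in treated and 49.9 ± 20.4 CPM in untreated tumours.

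A trend with GC content and transcript length, fitted together, touches 2 of the members most. In untreated 2 it put genes of the GC content and length of *Csf1r* at -1.01 and those like *Gpr34* at 0.88, on the log2 scale and relative to the 6 libraries together. With such a trend removed from each library, the log2 fold changes were -1.41 ± 0.36 for *Csf1r* and -2.25 ± 0.40 for *Gpr34*. The same correction left *C1qa* at -1.33, *C1qb* at -1.30, *C1qc* at -1.47 and *Fcrls* at -2.61. For *Mrc1*, *Cd163* and *Cd68* it gave -0.64, 0.86 and 0.03, beside -0.78, 0.91 and 0.05 without it.

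*Mrc1* lies on chromosome 2 from 14229392 to 14332057 and *Cd163* on chromosome 6 from 124304656 to 124330527. *Mrc1*, the mannose receptor CD206, had 118.5, 188.4 and 184.9 CPM in treated 1, 2 and 3, against 191.8, 401.9 and 249.3 CPM in untreated 1, 2 and 3. The groups were set apart by the gap between 188.4 CPM in treated 2 and 191.8 CPM in untreated 1. Its log2 fold change was -0.78 ± 0.34, and -0.43 ± 0.21 without untreated 2. *Cd163*, a scavenger receptor for haemoglobin bound to haptoglobin, had 14.5, 32.8 and 43.8 CPM in treated tumours, against 12.4, 4.69 and 30.9 CPM in untreated tumours. The groups overlapped, the lowest value rests on 21 counts in untreated 2, and the log2 fold change was 0.91 ± 0.67, 0.48 ± 0.48 without untreated 2 and 1.81 ± 0.61 without untreated 3. *Cd68* had 33.6, 58.1 and 62.7 CPM in treated tumours, against 39.2, 45.5 and 64.5 CPM in untreated tumours. These ranges are close to each other, and the log2 fold change was 0.05 ± 0.31, with a sign that turned when single libraries were left out.

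**Figure D2:**
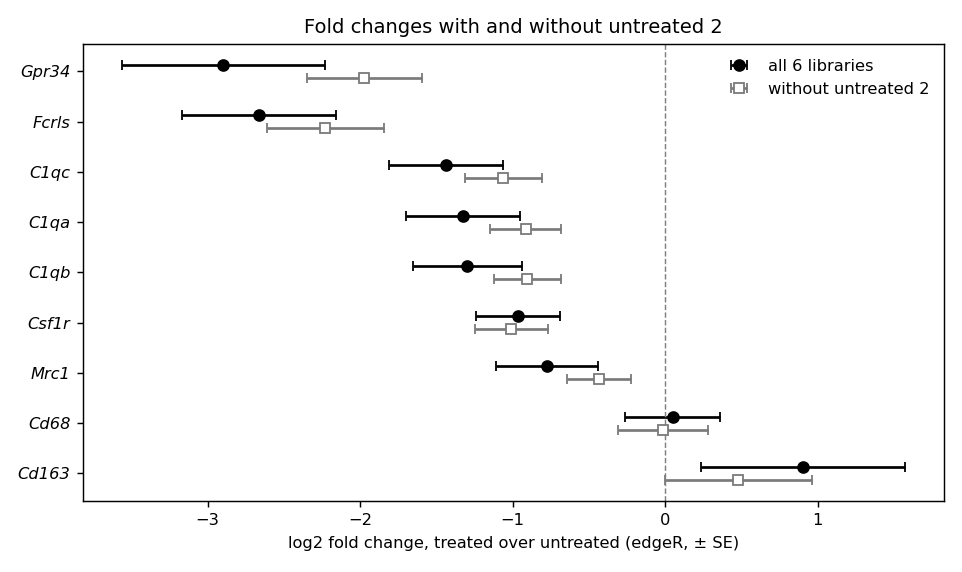
Log2 fold changes of treated over untreated tumours for the 9 genes, with standard errors from edgeR, with all 6 libraries (filled circles) and without untreated 2 (open squares). Values run from -2.90 for Gpr34 to 0.91 for Cd163, and 8 of the 9 lie nearer to 0 without untreated 2, Csf1r being the exception.

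Over all genes, edgeR's quasi-likelihood test called 0 of 12517 at a Benjamini-Hochberg adjusted p under 0.05, which is 0% of those tested, and so 0 of the 9 members. The smallest adjusted p was 0.592, and 1023 genes had an unadjusted p under 0.05. Lower at an unadjusted p under 0.05 were 6 of the 9 members and 4.85% of all tested genes, and 0 members were higher, against 3.32% of all tested genes. The treated values lay below each untreated one in 7 of the 9 members and in 10.2% of the tested genes. DESeq2 called 57 genes, among them *Fcrls* and *Gpr34* as lower, where 0.312% of the tested genes were called lower, and by limma-voom the count was 0. In the 5 libraries without untreated 2, 0 genes (0%) passed edgeR's adjusted threshold, with 6 members and 8.85% of the tested genes lower at an unadjusted p under 0.05. DESeq2 on those 5 libraries, run after the data were seen, called the C1q genes, *Csf1r*, *Fcrls* and *Gpr34* lower, and 1.23% of the tested genes. As the members were picked on this contrast, nothing is read from these counts.

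Set against *Cd68* within each library, the C1q genes and most of the resident markers were lower in treated tumours. The C1q sum was 3.79, 4.12 and 2.73 times the *Cd68* count in treated 1, 2 and 3, against 9.22, 14.8 and 5.14 times in untreated 1, 2 and 3. On the log2 scale the ratio averaged 1.80 ± 0.31 in the treated group and 3.15 ± 0.77 in the untreated group (SD, n = 3 each), a difference of -1.35, or -0.98 without untreated 2. The groups did not overlap, and untreated 3 was the untreated tumour nearest to the treated ones. An exact permutation test of 3 against 3 cannot give a p under 0.1, and none was made because the ratio was chosen on this contrast.

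The mean log2 ratio to *Cd68* over the 5 resident markers was -0.90 ± 0.35 in treated and 0.33 ± 0.39 in untreated tumours, a difference of -1.23, or -1.07 without untreated 2. That mean covers unlike genes. The difference for each gene alone was -2.76 for *Fcrls*, -2.71 for *Gpr34*, -1.04 for *Csf1r* and -0.77 for *Mrc1*, but 1.14 for *Cd163*, or 0.51 without untreated 2. The groups did not overlap for *Fcrls*, *Gpr34*, *Csf1r* and *Mrc1*, and they did for *Cd163*. *Cd163* and *Mrc1*, both often read as markers of alternatively activated macrophages, thus had values on either side of 0. The log2 ratio of *Cd163* to *Mrc1* was -2.54 ± 0.48 in treated and -4.46 ± 1.76 in untreated tumours, with overlapping groups, a difference of 1.92, or 0.94 without untreated 2.

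**Figure D3:**
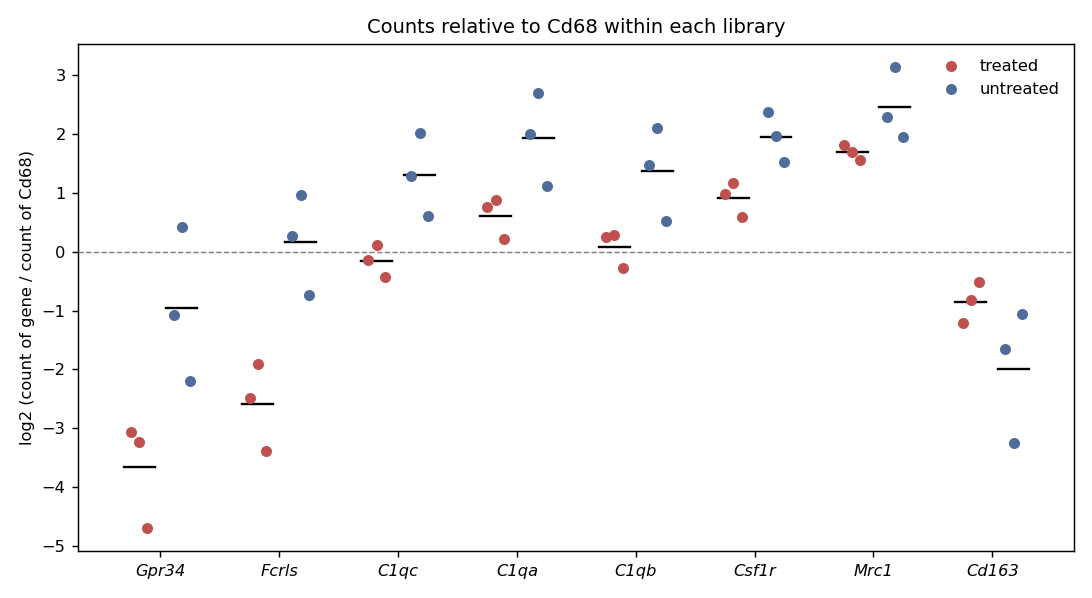
Points give the log2 ratio of a gene's count to that of Cd68 in each library, treated in red to the left of untreated in blue, with black lines at the group means. For 7 of the 8 genes the treated points lie below the untreated ones, and for Cd163 they overlap. The genes were picked on this contrast and the share of all genes set apart relative to Cd68 was not taken, so nothing is read from this count.

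*Cd68* alone does not stand for all macrophage genes. A list of general macrophage and myeloid genes had 19 of its 20 tested genes lower in treated tumours. Of the 19, 5 were at an unadjusted p under 0.05, where 4.85% of all tested genes were lower. The median log2 fold change was -0.60, against -0.001 over all tested genes. Without untreated 2 the median was -0.46. *Adgre1*, the F4/80 antigen, averaged 47.6 ± 29.6 CPM in treated and 113.6 ± 56.4 CPM in untreated tumours (SD, n = 3 each), and *Itgam*, an integrin chain of myeloid cells, 95.5 ± 14.7 CPM in treated and 119.6 ± 34.8 CPM in untreated tumours. *Lyz2*, a lysozyme, averaged 421.8 ± 167.4 CPM in treated and 685.4 ± 403.0 CPM in untreated tumours, and its log2 fold change of -0.70 was -0.14 without untreated 2. The same step gave -0.77 in place of -1.25 for *Adgre1* and -0.17 in place of -0.32 for *Itgam*. Treated and untreated values of these 3 genes overlapped. *Aif1*, a calcium-binding protein of macrophages, averaged 3.67 ± 1.36 CPM in treated and 6.23 ± 1.38 CPM in untreated tumours, and *Cd14*, a receptor for bacterial lipopolysaccharide, which alone in the list had a log2 fold change above 0, 61.2 ± 15.0 CPM in treated and 48.3 ± 23.7 CPM in untreated tumours. The genes with the smallest p were *Ms4a7*, with a log2 fold change of -1.26 ± 0.34, and *Cybb*, a subunit of the phagocyte NADPH oxidase, with -1.19 ± 0.40, which are close to the values of the C1q genes.

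The C1q sum was then set against each of these 20 genes in turn, a step added after the data were seen. The difference in log2 ratio, treated minus untreated, was below 0 for 19 of the 20 denominators, both with all libraries and without untreated 2, and the groups did not overlap for 13. The C1q genes, picked on this contrast, lay at percentiles 1.17 to 1.6 of all tested fold changes, counted from the lowest. Most genes as denominator would thus give a value below 0, and nothing is read from these counts. The median difference was -0.78, or -0.49 without untreated 2. Differences ran from -1.79 against *Cd14* to 0.01 against *Adgre1*, with -0.045 against *Cybb* and -0.07 against *Ms4a7*. Relative to *Cybb*, *Ms4a7* and *Adgre1*, C1q was at nearly the same level in both groups, with overlap. Without untreated 2 the difference was -0.40 in place of -1.44 against *Laptm5* and -0.33 in place of -1.29 against *Mertk*. These are genes of a lysosomal membrane protein and of a receptor for dying cells, named after their values were seen.

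**Figure D4:**
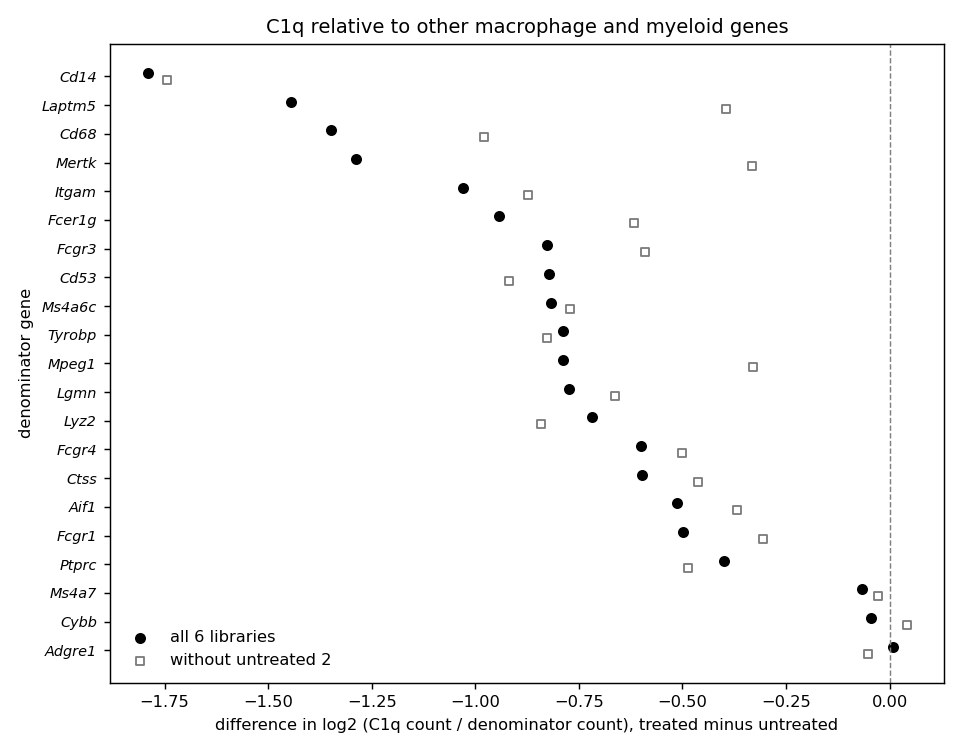
Differences in the log2 ratio of the summed C1q count to the count of each denominator gene, treated minus untreated, with all 6 libraries (circles) and without untreated 2 (squares). With all libraries the values run from -1.79 for Cd14 to 0.01 for Adgre1, and that for Cd68 is -1.35.

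The gene whose profile over the 6 libraries was nearest to the mean of the C1q genes was *Ms4a7*, a membrane protein of macrophages. Nearness was measured as the root mean square difference of log2 CPM after subtracting each gene's own mean. This difference was ranked over 10422 genes with at least 5 CPM on average, leaving out the members, unnamed gene models, pseudogenes and small RNAs. It was 0.10 for *Ms4a7*, 0.14 for *Plscr2*, 0.17 for *Tlr8*, an endosomal receptor for RNA, 0.17 for *Clec4a2*, a lectin receptor of myeloid cells, 0.18 for *Cybb* and 0.19 for *Cysltr1*, a leukotriene receptor, against a median of 0.83 over all ranked genes. Among the members it was 0.35 for *Mrc1*, 0.39 for *Csf1r*, 0.72 for *Fcrls*, 0.77 for *Gpr34*, 0.82 for *Cd68* and 1.65 for *Cd163*. The genes nearest to *Cd68* were others, *Csf2rb* at 0.09, a chain of the GM-CSF receptor, *Icam1* at 0.09, an adhesion molecule, *Galnt6* at 0.11, *Metrnl* at 0.13, *Acvrl1* at 0.14 and *Sp100* at 0.15, against a median of 0.51. These are descriptions of 6 libraries, of which untreated 2 stands apart.

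**Figure D5:**
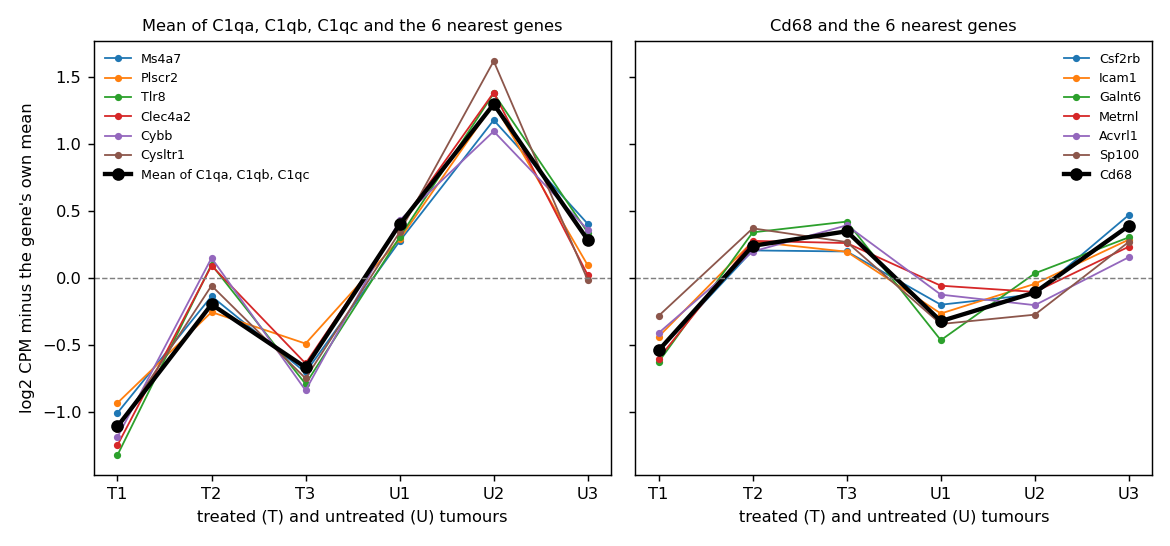
The log2 CPM of each gene minus its own mean in treated (T1 to T3) and untreated (U1 to U3) tumours, for the C1q genes with the 6 nearest genes (left) and for Cd68 with the 6 nearest (right); lines join the points of a gene and imply no order. The C1q profile runs from -1.11 in treated 1 to 1.30 in untreated 2, that of Cd68 from -0.54 in treated 1 to 0.39 in untreated 3.

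Levels of different genes were compared per length, as CPM per kilobase of the longest transcript. In treated tumours the order was *C1qa* (75.6 ± 24.5), *C1qb* (49.6 ± 14.1), *Cd68* (41.8 ± 12.7), *C1qc* (38.8 ± 13.3), *Mrc1* (30.5 ± 7.32), *Csf1r* (20.6 ± 6.82), *Cd163* (6.83 ± 3.33), *Fcrls* (4.01 ± 2.43) and *Gpr34* (1.98 ± 0.904). In untreated tumours it was *C1qa* (189.3 ± 81.5), *C1qb* (122.1 ± 51.3), *C1qc* (105.0 ± 41.8), *Mrc1* (52.3 ± 20.2), *Cd68* (40.4 ± 10.7), *Csf1r* (40.3 ± 2.88), *Fcrls* (25.6 ± 11.7), *Gpr34* (14.9 ± 12.4) and *Cd163* (3.60 ± 3.03). The ranges of neighbours over the libraries of a group mostly overlapped. Exceptions were *Csf1r* and *Cd163* in treated tumours and *C1qc* and *Mrc1* in untreated tumours. Compared within each library, *C1qa* lay above *C1qb*, *C1qb* above *C1qc* and *Fcrls* above *Gpr34* in every library. In each treated tumour *C1qc* also lay above *Mrc1*, *Mrc1* above *Csf1r* and *Cd163* above *Fcrls*. The order changed between treated libraries for *Cd68* with *C1qb* and with *C1qc*. Between untreated ones it changed for *Mrc1* with *Cd68*, *Cd68* with *Csf1r*, *Csf1r* with *Fcrls* and *Gpr34* with *Cd163*. By the group means *Cd163* was the lowest of the 9 in untreated tumours, though its range overlapped that of *Gpr34*. In treated tumours its mean stood above those of *Fcrls* and *Gpr34*.

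Other genes known from resident macrophages, from a list that also holds several microglial genes, were lower more often than higher in treated tumours. Of its 28 measured genes, 20 passed the filter, 16 of them lower and 4 higher, with 8 lower at an unadjusted p under 0.05 against 4.85% of all tested genes, and 0 adjusted. The median log2 fold change was -0.59, and -0.38 without untreated 2, with 15 lower and 5 higher. *Cx3cr1*, the fractalkine receptor, had 13.2, 24.8 and 16.8 CPM in treated 1, 2 and 3, against 65.3, 29.7 and 39.4 CPM in untreated 1, 2 and 3, and *Tmem119*, a microglial membrane protein that bone-forming cells also make, had 64.5, 80.7 and 64.03 CPM in treated tumours, against 141.1, 101.98 and 117.4 CPM in untreated tumours. In both the groups did not overlap. *P2ry12* and *P2ry13*, nucleotide receptors of microglia named after their values were seen, had log2 fold changes of -1.09 ± 0.44 and -1.93 ± 0.56, or -0.59 and -1.37 without untreated 2. In the other direction lay *Lyve1*, a hyaluronan receptor of macrophages around vessels and of lymphatic vessels, at 11.1 ± 1.64 CPM in treated and 6.80 ± 4.33 CPM in untreated tumours, and *Pf4*, a chemokine of platelets and macrophages, at 35.4 ± 17.6 CPM in treated and 20.5 ± 13.7 CPM in untreated tumours.

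Of the ligands of CSF1R, *Csf1* averaged 131.5 ± 15.9 CPM in treated and 115.0 ± 35.3 CPM in untreated tumours, and *Il34* averaged 17.2 ± 2.31 CPM in treated and 24.5 ± 4.31 CPM in untreated tumours, without overlap for *Il34*. Without untreated 2 the log2 fold change of *Csf1* was -0.05, against 0.19 with all libraries. The list of CSF1R ligands and signalling genes had 4 of 11 tested genes higher and 7 lower, 0 at an unadjusted p under 0.05, and a median log2 fold change of -0.09. Without untreated 2 the counts were 2 higher and 9 lower, with a median of -0.19. Among its genes with the smallest p were *Tyrobp*, an adaptor of myeloid receptors, at -0.56 ± 0.40, and *Syk* and *Cbl*, which act downstream of such receptors, at 0.53 ± 0.44 and 0.46 ± 0.45. Without untreated 2 these were -0.12 for *Tyrobp*, 0.21 for *Syk* and 0.07 for *Cbl*.

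Of 12 transcription factors of macrophages 4 were higher and 8 lower, with a median of -0.33. Of the 8, 3 were at an unadjusted p under 0.05, where 4.85% of all tested genes were lower. *Spi1*, which codes for PU.1, averaged 16.2 ± 5.14 CPM in treated and 11.3 ± 8.19 CPM in untreated tumours, and *Maf* 39.7 ± 8.67 CPM in treated and 51.5 ± 4.94 CPM in untreated tumours. The groups overlapped for both factors, and without untreated 2 the log2 fold change of *Spi1* was 0.08 in place of 0.51. *Mef2c* and *Id3* had the smallest p among the lower factors, with log2 fold changes of -0.74 ± 0.20 and -0.87 ± 0.30. *Cebpb* and *Runx1* had the smallest p among the higher ones, at 0.62 ± 0.33 and 0.77 ± 0.55, the value of *Runx1* being 0.31 without untreated 2.

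Genes of monocytes and inflammatory macrophages were mixed, with 11 of 17 tested genes higher and 6 lower, and a median log2 fold change of 0.84. At an unadjusted p under 0.05 were 2 in each direction, against 4.85% of all tested genes lower and 3.32% higher. Without untreated 2, 14 were higher and 3 lower. *Ccr2*, the chemokine receptor of blood monocytes, had 32.4, 40.7 and 26.1 CPM in treated 1, 2 and 3, against 68.7, 187.5 and 40.7 CPM in untreated 1, 2 and 3, so that treated 2 and untreated 3 were level. Its log2 fold change was -1.58 ± 0.55, or -0.73 without untreated 2. *Ly6c2*, another monocyte gene, averaged 1.46 ± 0.409 CPM in treated and 2.74 ± 2.37 CPM in untreated tumours, and without untreated 2 its log2 fold change was 0.04 in place of -0.84. *Vcan*, a matrix proteoglycan that fibroblasts also make, had a log2 fold change of -1.03 ± 0.34, while *Ccl4* and *Il1b*, inflammatory mediators, had 2.81 ± 0.92 and 1.45 ± 0.57. *Ccl4* was low throughout, at 4.79 ± 2.23 CPM in treated and 0.606 ± 0.864 CPM in untreated tumours.

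Beside *Mrc1* and *Cd163*, genes of alternative activation had 2 of 6 tested genes higher and 4 lower, with a median log2 fold change of -0.22. Of the 4, 2 were at an unadjusted p under 0.05, where 4.85% of all tested genes were lower. Without untreated 2, 3 were higher and 3 lower, with a median of -0.07. *Ccl22*, a chemokine, averaged 0.762 ± 0.591 CPM in treated and 3.10 ± 1.92 CPM in untreated tumours, and *Mgl2*, a lectin, 1.11 ± 0.609 CPM in treated and 3.94 ± 2.14 CPM in untreated tumours, both at low counts. *Arg1*, an arginase, averaged 75.9 ± 5.50 CPM in treated and 55.5 ± 55.3 CPM in untreated tumours, and *Clec10a*, another lectin, 3.23 ± 2.63 CPM in treated and 2.48 ± 0.782 CPM in untreated tumours, with overlap in both. Scavenger receptors had 5 of 7 higher and 2 lower, with a median of 0.14, or 4 higher and 3 lower with a median of 0.02 without untreated 2. Efferocytosis genes, which serve the uptake of dying cells, had 8 of 13 higher and 5 lower, with a median of 0.05. Without untreated 2, 6 were higher and 7 lower, with a median of -0.27.

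Among lysosome genes, which share the compartment of CD68, 7 of 18 were higher and 11 lower, with a median of -0.06. Of the 18, 1 was lower at an unadjusted p under 0.05, near the share of all tested genes, 4.85%. Without untreated 2, 6 were higher and 12 lower. *Scarb2*, a membrane protein that carries an enzyme to lysosomes, averaged 50.4 ± 2.56 CPM in treated and 69.8 ± 9.97 CPM in untreated tumours, without overlap. *Lamp2*, of the lysosomal membrane, averaged 211.0 ± 31.99 CPM in treated and 459.9 ± 352.0 CPM in untreated tumours, and its log2 fold change of -1.12 was -0.29 without untreated 2. *Gpnmb*, a glycoprotein of phagocytes and pigment cells, and *Gla*, a galactosidase, had log2 fold changes of 0.83 ± 0.50 and 0.24 ± 0.27.

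Partners and receptors of C1q lay the other way from the C1q genes, with 8 of 9 tested genes higher in treated tumours and 1 lower, 2 of the 8 at an unadjusted p under 0.05, against 3.32% of all tested genes. Without untreated 2, 7 were higher and 2 lower, as *Lrp1*, a receptor named after its values were seen, was then at -0.41 in place of 0.13. The median log2 fold change was 0.61, or 0.46 without untreated 2, and 0 passed the adjusted threshold. *Serping1*, the inhibitor of the C1 proteases, had 17.7, 61.8 and 56.6 CPM in treated 1, 2 and 3, against 8.62, 11.8 and 23.7 CPM in untreated 1, 2 and 3. *C1qbp*, a mainly mitochondrial protein that binds C1q, averaged 190.3 ± 34.03 CPM in treated and 116.4 ± 18.9 CPM in untreated tumours, and *Scarf1*, a receptor for cells marked by C1q, 4.29 ± 1.57 CPM in treated and 4.98 ± 0.641 CPM in untreated tumours. Treated 1 lay within the untreated range for *Serping1*, and the groups did not overlap for *C1qbp*. For the C1 protease genes *C1ra*, *C1s1* and *C1s2*, treated 1 lay below each untreated tumour, and treated 2 and 3 lay above each. These protease genes were named after their values were seen, and had 6.26, 7.51 and 0.894 CPM in treated 1. The genes of this list are also made by cells other than macrophages.

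Markers of other cell types were also set beside the C1q values. Neutrophil markers summed to between 91.3 and 130.9 CPM in treated and 24.5 to 103.4 CPM in untreated tumours, with 5 of 5 tested markers higher and *Mpo* and *Elane* at 0 in each library. *Cd3e* of T cells and *Ms4a1* and *Pax5* of B cells were at 0 in each library too, with sums of 1.61 to 5.47 CPM in treated and 4.46 to 8.47 CPM in untreated tumours for T and NK cell markers. Dendritic cell markers summed to between 41.8 and 95.9 CPM in treated and 106.4 to 243.8 CPM in untreated tumours, with 7 of 8 tested lower, and mast cell markers to between 25.2 and 30.03 CPM in treated and 36.7 to 74.98 CPM in untreated tumours, with 5 of 6 tested lower. Neither sum overlapped between the groups. The median log2 fold change was -1.14 for dendritic and -1.58 for mast cell markers, or -1.20 and -1.14 without untreated 2. Lower at an unadjusted p under 0.05 by edgeR were 3 of the 8 and 4 of the 6, against 4.85% of all tested genes. The dendritic cell list holds MHC class II genes that macrophages can also make, named after their values were seen. In untreated 1 *Cd74*, *H2-Aa*, *H2-Eb1* and *H2-Ab1* had 116.6, 41.0, 34.5 and 24.7 CPM of the 243.8 CPM. The other tested genes of that list had log2 fold changes of -0.16 for *Zbtb46*, -0.49 for *Ccr7*, 0.15 for *Itgax* and -1.49 for *Ciita*. Endothelial markers summed to between 143.2 and 223.3 CPM in treated and 104.0 to 178.7 CPM in untreated tumours. They had 8 of 9 tested higher, fibroblast markers 3 of 9, skeletal muscle markers, which summed to 433.3 CPM in treated 3 and to no more than 103.9 CPM elsewhere, 7 of 7 and adipocyte markers 1 of 2. Keratinocyte markers, from skin, were lower for 6 of 6 tested and summed to between 6.67 and 72.7 CPM in treated tumours, against 1256, 651.6 and 8.34 CPM in untreated 1, 2 and 3. The part of the other cell types in the C1q values was not tested.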

How the data were processed

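RNA of 6 tumours was analysed, grouped by title. Per the labels, RNA was taken with Trizol and libraries kept the strand. TopHat, without a version, and the build mm10 are named in the submitters' processing notes. For the counting, neither program, strand option nor annotation is given in the sources used here. The deposited values are whole-number counts for 23183 symbols, used as they stand.

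With edgeR 4.0.16 (R 4.3.3), filterByExpr (smallest count 10) kept 12517 genes. Counts were scaled with TMM and compared with the quasi-likelihood test, 2-sided, with Benjamini-Hochberg adjustment over all tested genes. CPM use the TMM library sizes. The SE of each fold change was taken as its size divided by the root of F. Ratios between genes are of counts within a library, with 0.5 added to both counts for single genes against Cd68. Transcript lengths and GC content are of the longest GENCODE M21 transcript. The libraries all differed by more than sampling noise (chi-square per gene at least 5.64). Alternatives included DESeq2 1.42.0, limma-voom (limma 3.58.1), other scalings and filters, leaving out each library and a replicate block. The fits were also run on simulated counts. That simulation held no library that stands apart, so it does not show how the fits do with untreated 2.

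The members, gene lists and rules were chosen with earlier results of these data known. The text names the 9 members, 11 other macrophage genes, of which 1 is not reported here, the 2 genes of each direction with the smallest p in each macrophage list described in more than a count, and the 6 genes nearest in profile to C1q and to Cd68.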

Additional observations from a re-analysis of the deposited data

How the results depend on the processing

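Over the 15 alternatives tried for each of the 9 members, 122 of 135 fold changes kept their direction and their side of edgeR's or the other test's threshold, 8 kept their direction and passed it, all with DESeq2, and 5 turned their sign, all for *Cd68*. The log2 fold change of *Cd68* was -0.04 without treated 2, -0.12 without treated 3, -0.11 without untreated 1, -0.0155 without untreated 2 and -0.0173 with DESeq2 without untreated 2, beside 0.05 with all libraries and 0.28 without untreated 3. The count of genes past the threshold was 57 with DESeq2, 273 with DESeq2 without untreated 2 and 0 to 4 with edgeR when single libraries were left out, the 4 without untreated 3, and the count of members was 2 and 6 with DESeq2 with and without untreated 2. The difference in the log2 ratio of the resident markers was -0.78 with the mean of *Cd68*, *Lyz2*, *Aif1* and *Itgam* as denominator and -0.62 with the mean of the 20 general macrophage genes, and that of C1q was -0.74 with the 20 genes, a choice made after seeing the data, and -0.90 with the 4 genes. Leaving out single libraries gave -1.74 to -0.98 for C1q against *Cd68* and -1.44 to -1.03 for the resident markers. The cause of these shifts was not tested. With the replicate number as a block edgeR called 0 genes and 0 members, and the C1q ratio was -1.35. Deviations of same-numbered libraries correlated at -0.18, -0.11 and 0.11 across genes. Between same-numbered libraries the difference in log2 ratio to *Cd68* had an SD of 0.47 for C1q and 0.04 for the resident markers. The labels do not say that the numbers pair the tumours, and these values do not settle it. With 3 libraries a group and a spread of 33.7% (17.3% without untreated 2, biological coefficient of variation), counts as low as those of *Gpr34* limit its precision.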
